A study of Mus musculus with 4 samples.

Results

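Of the 55536 genes in the count table, 8 were studied here, namely Krt19, Krt7, Krt8, Krt18, Cftr, Muc1, Spp1 and Epcam, taken by symbol as genes used to recognise pancreatic duct cells, and all 8 passed the filter on low counts. They were followed in bulk RNA sequencing libraries of pancreatic islets, the clusters of endocrine cells embedded in exocrine tissue, from male C57BL/6 mice aged 8 weeks. There were 2 insulin-depleted libraries, in which insulin sequences were removed during library preparation with a depletion panel, and 2 non-depleted libraries without that step. All were made from polyadenylated RNA. The labels call the 2 libraries of each group biological replicates but name no animals, and every column header carries the same pair of codes, so a p-value here speaks of the spread among libraries, which may be technical. Headers of the non-depleted libraries alone hold the letters size_sel, which may mean size selection; any such step cannot be told apart from the lack of depletion. Islets were freed by collagenase digestion of the whole pancreas.

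Pancreatic ducts are epithelial tubes that carry digestive enzymes away from acinar cells and add bicarbonate-rich fluid, for which the chloride and bicarbonate channel CFTR in the apical membrane is needed. Their cells are held by filaments of simple-epithelial keratins, in which 1 type I chain (keratin 18 or 19) pairs with 1 type II chain (keratin 7 or 8). Keratins 8 and 18, like the adhesion protein EpCAM, are also made by other pancreatic epithelia, so the 8 genes differ in how closely they mark ducts.

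Levels are given as CPM, the counts of each library scaled to one common total that leaves out Ins1 and Ins2. Those totals were 64858544 and 19278430 counts in insulin-depleted replicates 2 and 1, and 58127371 and 48510880 in non-depleted replicates 2 and 1. A count of 3, taken as the limit of detection, was worth 0.0463 and 0.156 CPM in insulin-depleted replicates 2 and 1, and 0.0516 and 0.0618 CPM in non-depleted replicates 2 and 1. Among genes with 2 to 9 counts, 80.01 to 84.01% had an even count, as if each fragment had added both of its reads. Intervals of replicate ratios and keratin shares below cover counting error only and were therefore computed on counts divided by 2. Intervals of insulin-depleted over non-depleted came instead from the edgeR fit to the full counts and include the spread among libraries. Of the islet hormone genes, Iapp stood at 17396 to 18761 CPM and Gcg at 11136 to 12812 CPM over the 4 libraries.

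The 8 genes together took 0.202% and 0.228% of counts in insulin-depleted replicates 2 and 1, and 0.203% and 0.228% in non-depleted replicates 2 and 1. The means were 0.215% ± 0.0187 in insulin-depleted and 0.216% ± 0.0175 in non-depleted libraries (SD, n = 2 each). The exact permutation test, two-sided, gave p = 1.00, and it cannot go below 0.333 with 2 libraries a group. The share thus split by replicate number, with both libraries numbered 2 below both numbered 1, and the groups overlapped. In such bulk RNA, fewer cells of a type and less RNA per cell cannot be told apart.

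**Figure D1:**
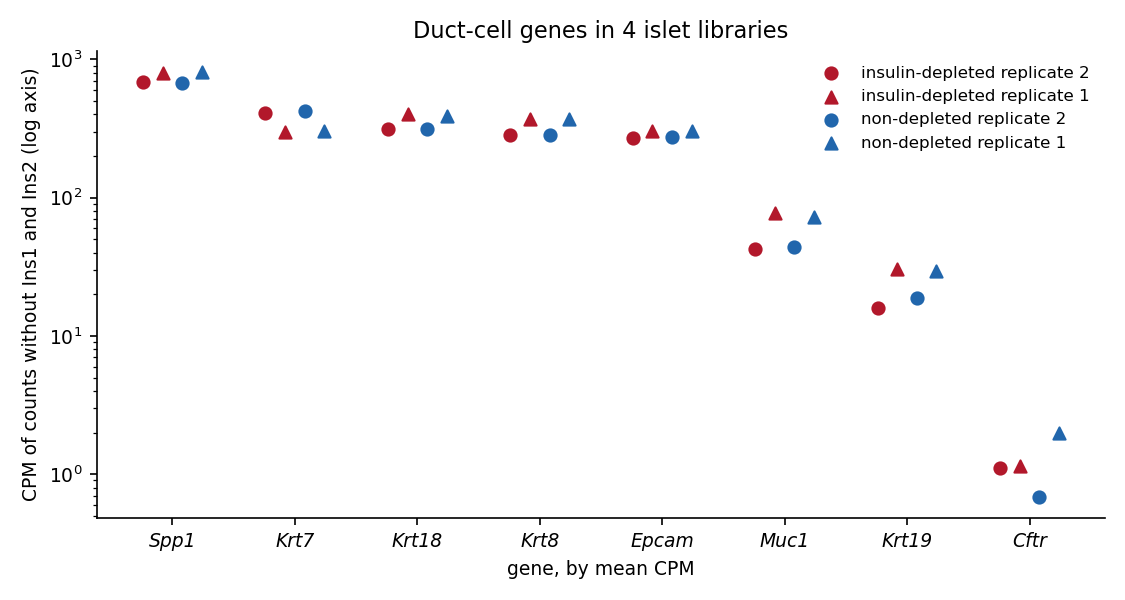
CPM (log axis, scaled to the total without Ins1 and Ins2) of the 8 duct-cell genes, with 1 point per library; circles are replicates 2 and triangles replicates 1, insulin-depleted in red to the left of non-depleted in blue. Spp1 had the highest CPM, between 676 and 812, and Cftr the lowest, between 0.688 and 2.00 CPM; the colours overlap for each gene while circles and triangles part for most.

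Compared per kilobase of annotated exonic sequence, the levels spanned from Spp1 to Cftr in a fixed order. Spp1 averaged 451 ± 44.6 CPM per kilobase, Krt18 247 ± 32.4, Krt8 167 ± 25.7, Epcam 130 ± 8.12, Krt7 50.8 ± 9.34, Muc1 25.2 ± 7.87, Krt19 12.7 ± 3.97 and Cftr 0.159 ± 0.071 CPM per kilobase (SD over all 4 libraries). Neighbours in this order did not overlap in range, and each stood above the next in 4 of 4 libraries. The narrowest step was that of Krt8 over Epcam, with means 1.28-fold apart, and the widest that of Krt19 over Cftr, 80.2-fold apart. Krt7 depends most on the length used, since 5 annotated transcripts join to 7049 exonic bases while the longest holds 4094. With the mean length of protein-coding transcripts, Krt7 averaged 151 and Epcam 216 CPM per kilobase, which put Epcam in place 3, above Krt8. Among 19618 tested genes other than Ins1 and Ins2, Spp1 lay above 99.8% and Cftr above 9.86% in CPM per kilobase.

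The type II keratin genes Krt7 and Krt8 and the type I gene Krt18 lie on chromosome 15 of GRCm38, and the type I gene Krt19 on chromosome 11. Krt8 (ENSMUSG00000049382, 101996698 to 102004482, minus strand) and Krt18 (ENSMUSG00000023043, 102028180 to 102032027, plus strand) point away from each other, 23697 bases apart with 0 protein-coding genes between them. Krt7 (ENSMUSG00000023039, 101411043 to 101430313, plus strand) is 566384 bases from Krt8. Krt19 (ENSMUSG00000020911) spans 100140810 to 100148665 on the minus strand. Promoter windows are printed for the neighbouring pair Krt8 and Krt18, for Krt7, which differed between replicates in the other direction, and for Muc1, the member closest to Krt19 in its levels over the libraries. The windows run from 250 bases before to 50 after the RefSeq start (build GRCm38.p6), 5′ to 3′, and were found for 7 of the 8 genes, all but Krt19. Capitals mark matches on either strand to any of 5 motifs. The GC box was searched as GGGCGG and the CCAAT box by the letters of its name. TATAAA stood for the TATA box, while AP-1 sites were searched as TGACTCA. The core bound by SOX factors was searched as AACAAT.
Krt7, chr15:101412153-101412452, plus strand: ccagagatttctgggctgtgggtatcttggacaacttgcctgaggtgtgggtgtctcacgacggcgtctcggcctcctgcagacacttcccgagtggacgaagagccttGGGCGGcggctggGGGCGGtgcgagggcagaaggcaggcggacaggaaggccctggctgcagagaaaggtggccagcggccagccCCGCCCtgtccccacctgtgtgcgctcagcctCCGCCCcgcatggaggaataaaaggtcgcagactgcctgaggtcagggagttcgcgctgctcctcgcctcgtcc
Krt8, chr15:102004293-102004592, minus strand: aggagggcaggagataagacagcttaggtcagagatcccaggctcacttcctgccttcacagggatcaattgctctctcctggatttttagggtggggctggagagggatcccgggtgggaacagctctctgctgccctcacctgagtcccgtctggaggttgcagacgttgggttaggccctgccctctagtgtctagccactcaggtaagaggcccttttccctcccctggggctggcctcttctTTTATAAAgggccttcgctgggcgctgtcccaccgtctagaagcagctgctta
Krt18, chr15:102027966-102028265, plus strand: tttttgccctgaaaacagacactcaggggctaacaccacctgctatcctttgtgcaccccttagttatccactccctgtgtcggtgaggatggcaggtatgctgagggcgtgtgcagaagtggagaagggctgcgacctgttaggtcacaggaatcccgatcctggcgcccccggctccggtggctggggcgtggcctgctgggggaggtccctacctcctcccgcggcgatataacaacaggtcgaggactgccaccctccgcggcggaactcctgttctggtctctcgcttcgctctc
Muc1, chr3:89228806-89229105, plus strand: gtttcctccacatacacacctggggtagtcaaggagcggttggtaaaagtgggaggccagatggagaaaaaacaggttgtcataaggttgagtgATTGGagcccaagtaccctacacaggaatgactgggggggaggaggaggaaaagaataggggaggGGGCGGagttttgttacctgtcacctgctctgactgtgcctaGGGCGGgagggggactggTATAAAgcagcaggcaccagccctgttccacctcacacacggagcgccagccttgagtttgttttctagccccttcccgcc

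The Krt7 window held 4 GC boxes and the Krt18 window no match to any of the 5 motifs, with 66.3% G and C in Krt7 and 61.3% in Krt18, against a median of 52.7% over all promoter windows. Krt8 held a TATAAA that overlaps its own reverse complement by 4 bases, and Muc1 held 2 GC boxes, 1 CCAAT on the minus strand and 1 TATA box. Over the 7 genes with a window, taking the first of the 2 windows of Spp1, the GC box was present in 4 (Krt7, Cftr, Muc1 and Epcam), against 35.7% of 32851 promoter windows of the same length. CCAAT was present in 3 of 7 against 37.4%, and TATAAA in 3 of 7 against 13.6%. The search took TATAAA anywhere in the window. Counted from the start, the match lay at -31 to -26 in Muc1, at -211 to -206 in Spp1 and at -1 to 4 in Krt8. Neither the SOX core (10.7% of all windows) nor the AP-1 site (5.20%) occurred in any of the 7. These matches describe the letters of the windows and are not shown to be bound.

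The first comparison asks whether insulin depletion moved duct-cell genes. None of the 8 was called: 0 of 8 passed the edgeR quasi-likelihood test on group alone (adjusted p under 0.05 over all 19620 genes tested), 0 of 8 had an unadjusted p under 0.05, and DESeq2 and limma-voom also called 0. Of all genes tested, 0.0102% were called, and these were Ins1 and Ins2. Insulin-depleted and non-depleted libraries overlapped for all 8 genes, while for 19.4% of all genes tested they did not. The median log2 fold change was -0.0070 over the 8 genes and 0.0016 over all genes tested.

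Krt18 had 315 and 401 CPM in insulin-depleted replicates 2 and 1, against 316 and 390 CPM in the non-depleted ones. Its partner Krt8 had 283 and 372 CPM in insulin-depleted replicates 2 and 1, against 284 and 370 CPM in non-depleted replicates 2 and 1. For both genes the libraries with the same number were nearly level across the groups, and the log2 fold changes were 0.02 (SE 0.16) for Krt18 and -0.00035 (SE 0.18) for Krt8. Of the 31-base stretches of Krt8, 32.2% also occur in the pseudogene Krt8-ps, which had 77 and 38 counts in insulin-depleted replicates 2 and 1 and 77 and 71 in non-depleted replicates 2 and 1, against 7162 to 18368 for Krt8. Krt7 had 409 and 298 CPM in insulin-depleted replicates 2 and 1, against 421 and 304 CPM in non-depleted replicates 2 and 1, with a log2 fold change of -0.03 (SE 0.21). Here the libraries numbered 2 were the high ones in both groups. Krt19 had 16.0 and 30.6 CPM in insulin-depleted replicates 2 and 1, against 18.7 and 29.3 CPM in the non-depleted ones, with a log2 fold change of -0.06 (SE 0.36).

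Epcam (ENSMUSG00000045394, chromosome 17, 87635979 to 87651129, plus strand), which encodes a surface protein of epithelial cells that joins neighbouring cells, was the steadiest member. It had 269 and 302 CPM in insulin-depleted replicates 2 and 1, against 273 and 301 CPM in non-depleted replicates 2 and 1. Its 95% interval for insulin-depleted over non-depleted ran from 0.841-fold to 1.17-fold, the narrowest of the 8 in the fit on group alone. Muc1 (ENSMUSG00000042784, chromosome 3, 89229057 to 89233381, plus strand), a transmembrane mucin of apical surfaces, had 42.4 and 77.0 CPM in insulin-depleted replicates 2 and 1, against 44.0 and 73.0 CPM in non-depleted replicates 2 and 1. The log2 fold change was 0.02 (SE 0.35), with an interval of 0.548-fold to 1.88-fold, and the libraries of each group lay far apart.

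Spp1 (ENSMUSG00000029304, chromosome 5, 104435118 to 104441050, plus strand) encodes the secreted phosphoprotein osteopontin, which is also made by macrophages. It had 682 and 801 CPM in insulin-depleted replicates 2 and 1, against 676 and 812 CPM in the non-depleted ones; its log2 fold change was -0.0047 (SE 0.13). Macrophage and immune markers, set beside Spp1, summed to 105 and 88.0 CPM in insulin-depleted replicates 2 and 1 and to 107 and 92.1 CPM in the non-depleted ones, over 13 genes, with Cd3e at 0 counts in all libraries. The sum was thus higher in the libraries numbered 2, where Spp1 was lower, but the genes did not share that direction: of 12 tested, 6 were higher and 3 lower in replicate 2 in both groups. Cd68 in replicate 2 had 1.46 times its replicate 1 level in insulin-depleted and 1.06 times in non-depleted libraries, and Cd74 had 27.9 and 19.2 CPM in insulin-depleted replicates 2 and 1 and 27.8 and 18.2 CPM in the non-depleted ones. The part of immune cells in the Spp1 level was not tested. Of the 31-base stretches of Spp1, 14.3% also occur in Gm42793, a transcript annotated on the same strand that had 22 to 71 counts. Cftr (ENSMUSG00000041301, chromosome 6, 18170687 to 18322768, plus strand) was the member with the fewest counts, with 72 and 22 counts in insulin-depleted replicates 2 and 1 and 40 and 97 counts in non-depleted replicates 2 and 1. That is 1.11 and 1.14 CPM in insulin-depleted libraries and 0.688 and 2.00 CPM in non-depleted libraries. The 95% interval of insulin-depleted over non-depleted Cftr ran from 0.321-fold to 2.21-fold, the widest of the 8.

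**Figure D2:**
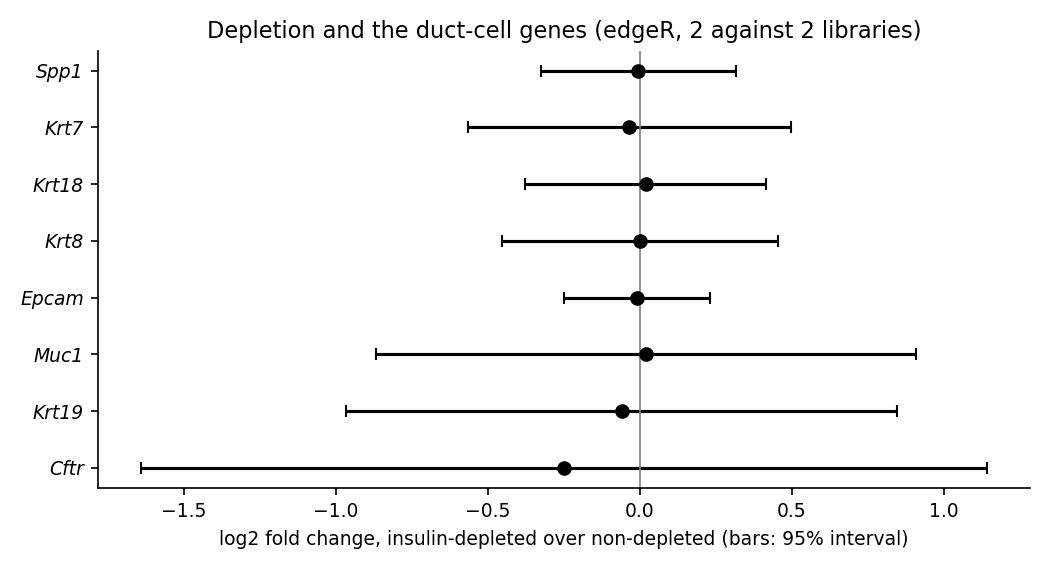
Log2 fold change of each duct-cell gene, insulin-depleted over non-depleted (x axis), with 95% intervals from the edgeR quasi-likelihood fit of 2 against 2 libraries; genes run down the page by mean CPM. Each interval spans 0, from the narrowest for Epcam (-0.25 to 0.23) to the widest for Cftr (-1.64 to 1.14).

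The second comparison sets replicate 2 against replicate 1 within each group. Each side is 1 library, so there is no test, and the intervals compare these libraries and not animals. Of the 8 genes, 7 were lower and 1, Krt7, was higher in replicate 2 than in replicate 1, in insulin-depleted and in non-depleted libraries alike. Cftr is counted among the 7, although its counting interval in insulin-depleted libraries spanned 1. The median log2 ratio of the 8 genes was -0.29 in insulin-depleted and -0.34 in non-depleted libraries, against 0.02 (insulin-depleted) and 0.03 (non-depleted) over the 19618 tested genes other than Ins1 and Ins2. At least 1.5-fold lower in replicate 2 were 2 of 8 in insulin-depleted libraries (Krt19 and Muc1), against 9.71% of all genes tested, and 3 of 8 in non-depleted libraries (Krt19, Muc1 and Cftr), against 7.71%. At least 1.5-fold higher were 0 of 8 in either group, against 12.8% of all genes in insulin-depleted and 9.51% in non-depleted libraries. These shares depend on level. For the 11595 genes that averaged 5 CPM or more, 2.78% were higher and 1.93% lower by that fold in insulin-depleted libraries. In non-depleted libraries 1.96% of them were higher and 1.73% lower. Of the 8 duct-cell genes, Cftr alone averaged under 5 CPM.

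Krt19 had 0.523 times its replicate 1 level in insulin-depleted replicate 2 (95% counting interval 0.452 to 0.605) and 0.639 times in non-depleted replicate 2 (0.571 to 0.716). For Muc1 the ratio was 0.550 (0.503 to 0.603) in insulin-depleted and 0.603 (0.560 to 0.648) in non-depleted libraries. These intervals lay below 1 in both groups, and for each gene those of the groups overlapped. Krt8 and Krt18 differed less, with ratios of 0.762 (0.733 to 0.793) and 0.784 (0.755 to 0.814) in insulin-depleted libraries. In non-depleted libraries the ratio was 0.768 (0.745 to 0.791) for Krt8 and 0.811 (0.788 to 0.835) for Krt18. Spp1 stood at 0.852 in insulin-depleted and 0.833 in non-depleted libraries, and Epcam at 0.891 in insulin-depleted and 0.905 in non-depleted libraries. Krt7 ran the other way, at 1.37 (1.32 to 1.43) in insulin-depleted and 1.38 (1.34 to 1.42) in non-depleted libraries. Cftr gave no such common picture. Its ratio was 0.973 (0.484 to 2.12) in insulin-depleted and 0.344 (0.195 to 0.597) in non-depleted libraries, on counts too low to set the groups apart.

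**Figure D3:**
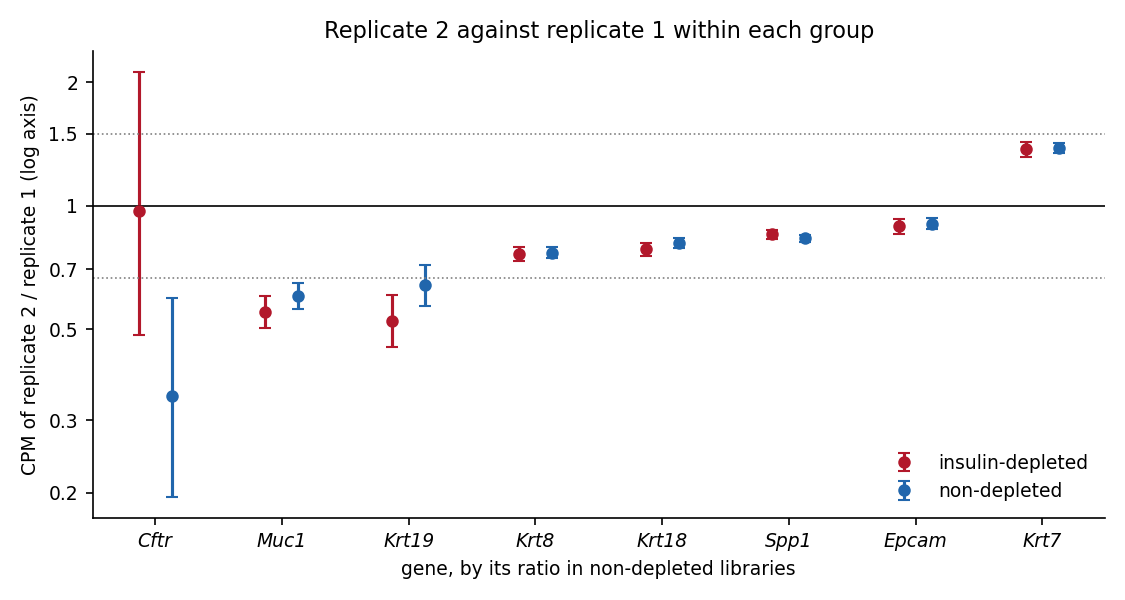
Ratio of CPM in replicate 2 to replicate 1 (log axis) for each duct-cell gene, insulin-depleted in red to the left of non-depleted in blue, with exact 95% counting intervals on counts divided by 2; dotted lines mark 1.5-fold. Krt7 is the one gene above 1 in both groups, at 1.37 in insulin-depleted and 1.38 in non-depleted libraries, and Muc1 and Krt19 lie near or below the lower dotted line in both.

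Ratios between keratins within a library need no scaling between libraries. Krt7 made up 59.1% (58.4 to 59.7%) and 44.5% (43.3 to 45.8%) of the Krt7 and Krt8 counts in insulin-depleted replicates 2 and 1, and 59.7% (59.0 to 60.3%) and 45.1% (44.3 to 45.9%) in non-depleted replicates 2 and 1 (exact Clopper-Pearson 95% intervals). The Krt7 share was thus higher in both libraries numbered 2 than in both numbered 1. These are shares of counts and not of transcripts, since Krt7 has 7049 exonic bases and Krt8 1958. Per kilobase of exonic sequence, insulin-depleted replicates 2 and 1 had 58.0 and 42.3 CPM for Krt7, against 145 and 190 for Krt8. Krt19 made up 4.84% and 7.09% of the Krt18 and Krt19 counts in insulin-depleted replicates 2 and 1, and 5.59% and 6.98% in non-depleted replicates 2 and 1. The ratio of Krt18 to Krt8 counts was 1.11 and 1.08 in insulin-depleted replicates 2 and 1, and 1.11 and 1.05 in non-depleted replicates 2 and 1. It was thus also higher in both libraries numbered 2, over a narrower range. No counting interval was computed for the Krt18 to Krt8 ratio. The counting intervals of the replicate ratios of Krt8 and Krt18 overlapped in both groups, so this difference may lie within counting error. Between groups the Krt7 share averaged 51.8% ± 10.3 in insulin-depleted and 52.4% ± 10.3 in non-depleted libraries (SD, n = 2 each; exact permutation test, two-sided, p = 0.667). The Krt19 share averaged 5.96% ± 1.59 in insulin-depleted and 6.29% ± 0.986 in non-depleted libraries, and the Krt18 to Krt8 ratio 1.10 ± 0.0216 in insulin-depleted and 1.08 ± 0.0417 in non-depleted libraries (SD, n = 2 each, exact permutation p = 1.00 for both).

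**Figure D4:**
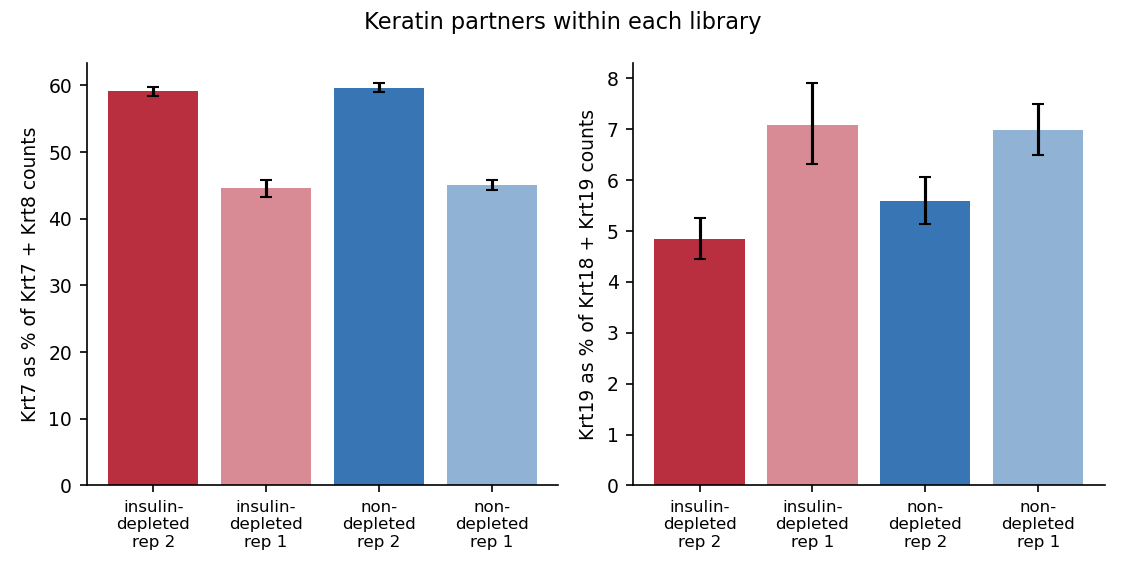
Krt7 as a percentage of Krt7 and Krt8 counts (left) and Krt19 as a percentage of Krt18 and Krt19 counts (right) in each library, insulin-depleted before non-depleted, with replicates 2 in dark and replicates 1 in pale colour; bars start at 0 and whiskers are exact 95% counting intervals on counts divided by 2. Krt7 stood at 59.1 and 59.7% in replicates 2 and at 44.5 and 45.1% in replicates 1, whereas Krt19 was lower in replicates 2.

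Acinar transcripts also differed by replicate number. The 22 acinar markers summed to 7965 and 18942 CPM in insulin-depleted replicates 2 and 1, and to 7927 and 18956 CPM in the non-depleted ones. Of these markers, 20 of the 21 that passed the filter were lower in replicate 2 in both groups. Their ratio of sums was 0.421 in insulin-depleted and 0.418 in non-depleted libraries, below that of the 8 duct-cell genes, which was 0.884 in insulin-depleted and 0.891 in non-depleted libraries. The exception was the transcription factor gene Bhlha15, higher in replicate 2, with 33.0 and 25.7 CPM in insulin-depleted replicates 2 and 1 and 33.2 and 22.7 CPM in the non-depleted ones. No acinar marker was at 0 in all libraries, and the other acinar transcription factor gene on the list, Ptf1a, had at most 0.207 CPM. Both were named after their values were seen. The part of acinar RNA in the levels of Krt19, Muc1, Krt8 and Krt18 was not tested. Mesothelial cells also make simple-epithelial keratins. Of 8 mesothelial markers, 2 passed the filter, namely Msln and Gpm6a. Msln had 33.7 and 39.9 CPM in insulin-depleted replicates 2 and 1 and 32.6 and 43.0 CPM in the non-depleted ones. Gpm6a had 12.2 and 12.8 CPM in insulin-depleted replicates 2 and 1 and 12.9 and 10.8 CPM in the non-depleted ones. The other 6 of 8 mesothelial markers, Wt1, Bnc1, Lrrn4, Upk3b, Upk1b and Muc16, had at most 0.154 CPM. The part of mesothelial cells in the keratin levels was not tested. The 12 stellate and fibroblast markers summed to 677 and 713 CPM in insulin-depleted replicates 2 and 1 and to 680 and 721 CPM in the non-depleted ones. Of these 12, 9 were lower and 2 higher in replicate 2 in both groups. The ratio of sums of the 9 alpha- and delta-cell markers was 0.861 in insulin-depleted and 0.864 in non-depleted libraries, near that of the duct-cell genes. Among these 9, 5 were lower and 2 higher in replicate 2 in both groups. The part of these cell types in the levels of the 8 duct-cell genes was not tested. Like Krt7, 12 of 13 endothelial markers and 7 of 9 beta-cell markers other than Ins1 and Ins2 were higher in replicate 2 in both groups. The endothelial sum was 1313 and 1205 CPM in insulin-depleted replicates 2 and 1 and 1319 and 1203 CPM in the non-depleted ones. The beta-cell sum, most of it Iapp, was lower in replicate 2, at 19233 and 19886 CPM in insulin-depleted replicates 2 and 1 and 19092 and 20193 CPM in the non-depleted ones. The part of either cell type in the Krt7 level was not tested.

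**Figure D5:**
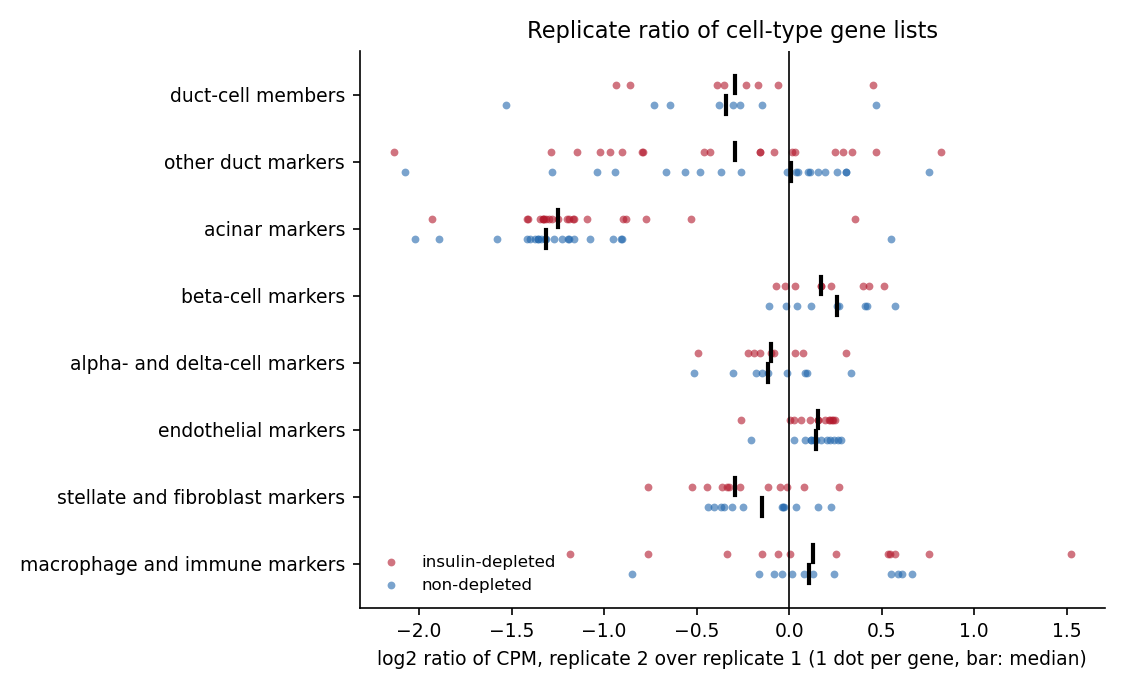
Log2 ratio of CPM, replicate 2 over replicate 1, for the tested genes of 8 cell-type lists (1 dot per gene, black bar for the median), with insulin-depleted in red above non-depleted in blue. Acinar markers lie farthest left, with medians of -1.25 (insulin-depleted) and -1.31 (non-depleted), the duct-cell genes have medians of -0.29 (insulin-depleted) and -0.34 (non-depleted), and Ins1 and Ins2 are left out of the beta-cell list.

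Other duct markers did not share one direction between replicates. Of 20 tested from a list of 21, 10 were lower and 7 higher in replicate 2 in both groups, and the median log2 ratio was -0.29 in insulin-depleted and 0.01 in non-depleted libraries. Past 1.5-fold, 8 of 20 were lower and 1 higher in insulin-depleted libraries, against 9.71% and 12.8% of all genes tested. In non-depleted libraries 5 of 20 were lower and 1 higher by that fold, against 7.71% and 9.51%. Larger differences thus leaned downward, though some of these genes had few counts. The ratio of sums was 0.811 in insulin-depleted and 0.803 in non-depleted libraries. The highest mean CPM over the 4 libraries was that of Dmbt1, which encodes a secreted mucosal glycoprotein, with 137 and 334 CPM in insulin-depleted replicates 2 and 1 and 140 and 339 CPM in the non-depleted ones. Dcdc2a had 108 and 61.1 CPM in insulin-depleted replicates 2 and 1 and 112 and 66.1 CPM in the non-depleted ones. Dmbt1 was thus lower, and Dcdc2a higher, in both libraries numbered 2. Prom1, the gene of the surface protein prominin 1, had 174 to 181 CPM, more than Dmbt1 in the libraries numbered 2, and the tetraspanin gene Tspan8 60.2 to 73.5 CPM over the 4 libraries. The duct transcription factor gene Sox9, named after its values were seen and also known from pancreatic progenitors, had 13.1 to 14.9 CPM over the 4 libraries. None of the 20 was called between insulin-depleted and non-depleted libraries (edgeR, 0 called, 8 positive and 12 negative log2 fold changes, median -0.04).

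The genes of ductal fluid secretion that work beside CFTR were measured as a list of 17. Of these 15 passed the filter, 0 were called between insulin-depleted and non-depleted libraries (edgeR), and the log2 fold change was positive in 9 and negative in 6 (median 0.03). The highest CPM were those of the broadly expressed kinase gene Wnk1 (667 and 662 CPM in insulin-depleted replicates 2 and 1, 663 and 650 CPM in non-depleted replicates 2 and 1), the potassium channel gene Kcnma1 (128 to 144 CPM over the 4 libraries) and the anion exchanger gene Slc4a2 (53.6 to 61.0 CPM). Lower on the list, Slc4a4 had 29.2 to 36.5 CPM, Ano1 11.6 to 19.8 CPM and Slc26a6 2.95 to 3.42 CPM over the 4 libraries. The 3 genes that follow had the lowest mean CPM of the list. They had few counts and, like Slc4a4, Ano1 and Slc26a6, were singled out after their values were seen. Sctr, the receptor for secretin, had 0.416 and 0.622 CPM in insulin-depleted replicates 2 and 1 and 0.602 and 0.866 CPM in non-depleted replicates 2 and 1. The bicarbonate exchanger gene Slc26a3 had at most 4 counts and the water channel gene Aqp5 at most 2 counts in a library. Aqp5 was thus under the limit of detection in all 4 libraries.

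Partners of the other members showed no call either (edgeR, 0 called in each list). Of 18 genes of epithelial junctions and EpCAM partners, 7 had a positive and 11 a negative log2 fold change, and their sum was 2542 and 2575 CPM in insulin-depleted replicates 2 and 1 and 2538 and 2575 CPM in the non-depleted ones. Epithelial cadherin, Cdh1, had 508 and 494 CPM in insulin-depleted replicates 2 and 1 and 507 and 502 CPM in non-depleted replicates 2 and 1. Of 11 genes of desmosomes and keratin anchors, 5 were positive and 6 negative, with desmoplakin, Dsp, at 319 to 332 CPM over the 4 libraries. Among 10 tested osteopontin receptors and relatives, 6 were positive and 4 negative. The receptor gene Cd44 had 135 and 179 CPM in insulin-depleted replicates 2 and 1 and 134 and 183 CPM in the non-depleted ones, while the integrin gene Itgb1 had 604 to 637 CPM over the 4 libraries.

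By the root mean square distance between centred log2 CPM over the 4 libraries, the genes closest to Krt19 among 11595 others with a mean of at least 5 CPM or on the list were Pmp22 (0.03), Ripk2 (0.04), Atp10d (0.04), Cp (0.05) and Reep1 (0.06). Muc1 ranked 6, at 0.06, followed among the members by Krt8 at rank 364, Krt18 at 535, Spp1 at 960, Epcam at 1795, Cftr at 6694 and Krt7 at 11060. With 4 libraries many genes come this close, and 38 lay within 0.1 of Krt19. Cp, the ceruloplasmin gene, was also on the list of other duct markers, with 40.5 and 69.9 CPM in insulin-depleted replicates 2 and 1 and 43.9 and 69.6 CPM in non-depleted replicates 2 and 1.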

How the data were processed

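Gene counts of 4 bulk islet libraries were analysed. The authors deposited them as whole-number counts per gene, with no normalization. For the non-depleted libraries the deposited values are recorded under expected counts, for the sole reason that a unit check took the word size in the headers for a size column; being whole, they needed no rounding. Per the submitters' processing notes, cutadapt 4.8, STAR 2.7.11b, GRCm38 and mm10 were used, with no role stated. Which program counted reads, whether by strand, and how it handled multi-mapped reads is not given in the sources used here, so Krt8, Krt18, Spp1 and genes with antisense partners (Krt7, Krt8 and Cftr) could carry reads of other genes. Of the 31-base stretches, 36% of those of Krt8 and 11.4% of those of Krt18 also occur in other genes. If multi-mapped reads were dropped, Krt8, Krt18 and Spp1 could instead lack reads, which bears on the order of levels.

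All 55536 identifiers matched GENCODE M21 (GRCm38), the source of coordinates and lengths. Library sizes were totals without Ins1 and Ins2. edgeR 4.0.16 (R 4.3.3) was run on the 4 libraries with filterByExpr, estimateDisp, robust glmQLFit and glmQLFTest on group alone. Benjamini-Hochberg adjustment covered all genes tested, threshold 0.05. A run on simulated counts used a common dispersion for all genes and libraries without pairing by number. It therefore does not show how the test performs on these data. Standard errors came from the log2 fold change and its F statistic. DESeq2 1.42.0, limma-voom (limma 3.58.1), other scalings, filters and left-out libraries were alternatives. Replicate ratios used CPM, with 0.5 counts added on the log2 scale, and exact Clopper-Pearson splits of the counts.

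The 8 genes and the 16 gene lists were chosen with earlier results of these data known. By rule the text names the 8 genes, up to 4 of a list by mean CPM, any called list member and the 5 closest to Krt19. Outside it, markers at or near 0 (Cd3e, Lrrn4, Upk3b, Upk1b, Muc16, Ptf1a, Slc26a3, Aqp5) were named after their values were seen. So were Bhlha15, Sox9, Sctr, Slc4a4, Ano1 and Slc26a6. The same holds for Krt8-ps and Gm42793, which share sequence with members.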

Additional observations from a re-analysis of the deposited data

How the results depend on the processing

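No duct-cell gene was called under any alternative run, and leaving out 1 library gave 0 members and 2 genes called each time; the lone library is then assumed to vary like the other group's 2, so this says little of stability. With the replicate number as a block, 9 genes were called, against 2 without it, of 19620 tested; none of the 8 was among them, and their log2 fold changes under the block ran from -0.09 (Krt19) to 0.02 (Krt18). Intervals were narrower under the block for all 8 genes. For Muc1 the log2 interval ran from -0.090 to 0.110, against -0.867 to 0.909 on group alone. Spp1 (SE 0.018) was then narrower than Epcam (SE 0.024). Same-numbered libraries deviated together (r = 0.844 across 11595 genes, which are not independent replicates), but the labels name no shared animal. Leaving out each library in turn moved the median of the 8 genes between -0.19 and 0.19, and single genes between -0.58 and 0.35 (Krt19), -0.28 and 0.22 (Krt7), -0.21 and 0.20 (Krt8), -0.17 and 0.18 (Krt18), -0.83 and 0.71 (Cftr), -0.46 and 0.43 (Muc1), -0.13 and 0.13 (Spp1), and -0.094 and 0.072 (Epcam); each group then holds unequal replicate numbers. With totals that include insulin, the log2 fold change turned positive for Krt7 (0.022), Krt8 (0.056), Spp1 (0.052) and Epcam (0.047), by construction, since the median of all genes moved to 0.06. In limma-voom it turned negative for Krt18 (-0.0028) and Muc1 (-0.089); the cause was not tested. The median replicate ratio in non-depleted libraries was -0.37 with DESeq2 size factors. The direction of each replicate ratio held under each scaling, pseudocount and halving run. These runs do not settle the direction for Cftr in insulin-depleted libraries, where its counting interval spanned 1. Depth limits Cftr, with 22 counts in insulin-depleted replicate 1.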

Other observations

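Of 49 other protein-coding keratin genes, 21 had 0 counts in all 4 libraries and 9 passed the filter, of which 0 were called between insulin-depleted and non-depleted libraries (edgeR). The highest CPM was that of Krt80, a type II keratin, with 43.5 and 22.9 CPM in insulin-depleted replicates 2 and 1 and 44.6 and 21.7 CPM in non-depleted replicates 2 and 1. Like Krt7, it was higher in the libraries numbered 2. Krt20, a type I keratin of gut epithelium, had 3.18 and 11.4 CPM in insulin-depleted replicates 2 and 1 and 3.82 and 13.9 CPM in the non-depleted ones, so it was lower there. Krt222 had 19.7 and 11.5 CPM in insulin-depleted replicates 2 and 1 and 18.8 and 12.3 CPM in non-depleted replicates 2 and 1.

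Among 13 other mucin and mucin-like genes, 7 passed the filter and 0 were called (edgeR). Muc4, a transmembrane mucin, had 68.5 and 39.7 CPM in insulin-depleted replicates 2 and 1 and 68.6 and 38.3 CPM in non-depleted replicates 2 and 1, the opposite direction to Muc1. Muc13, another transmembrane mucin, had 8.11 and 12.03 CPM in insulin-depleted replicates 2 and 1 and 7.52 and 12.4 CPM in non-depleted replicates 2 and 1.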
